A study of Mus musculus with 22 samples.

Results

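De novo lipogenesis is the route by which a cell builds fatty acids from acetyl-CoA, and 10 genes of it are described here by the accessibility of their chromatin in mouse epididymal adipocytes. The 10 genes were taken by name from 21911 protein-coding genes: Acly, Acaca, Acacb, Fasn, Elovl6, Scd1, Scd2, Mlxipl, Srebf1 and Thrsp. The locus of a gene was its span in the GENCODE vM21 annotation of the mouse build GRCm38 with 20 kb added at each side. Each of the 22 libraries is an ATAC-seq profile, in which a transposase cuts open chromatin, of the adipocyte nuclei of 1 animal, and the values come from the peak list deposited for that library. All mice were male AdipoERCre x NuTRAP animals, a cross in which tamoxifen given before the diets switches on a biotin tag on the nuclei of adipocytes alone. Nothing in the lists gives the share of nuclei that were adipocytes.

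The groups differ in diet, duration and age. In the short arm, C (n = 3) were 18-week-old controls on low-fat chow and H (n = 3) had eaten a high-fat diet (HFD) for 12 weeks at the same age. CC_s (n = 3) were 26-week-old controls, and HC (n = 3) had 12 weeks of HFD and then 8 weeks of chow, during which they lost weight (WL). In the long arm, CC_l (n = 2) were 31-week-old controls and HH (n = 3) had eaten HFD for 25 weeks. CCC (n = 2) were 39-week-old controls, and HHC (n = 3) had 25 weeks of HFD followed by 8 weeks of chow. CC_s and CCC also changed to another chow for their last 8 weeks, so their age and their chow cannot be told apart in comparisons with C and CC_l. The labels number the libraries of each arm in a series of their own. They do not say whether the arms were prepared apart, and duration cannot be told apart from any such difference. The lists held 40528 to 60523 peaks per library, which covered 128 to 299 Mb, and no read counts, so that the depth of each library is unknown.

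Within the cytosol, ATP citrate lyase (Acly) makes acetyl-CoA from citrate, and acetyl-CoA carboxylase turns it into malonyl-CoA. Fatty acid synthase (Fasn) joins these units into palmitate, Elovl6 lengthens it and the stearoyl-CoA desaturases (Scd1, Scd2) place a double bond. The transcription factors ChREBP (Mlxipl), which responds to glucose, and SREBP1 (Srebf1), which responds to insulin, switch these genes on in adipose tissue and liver, and Thrsp (Spot14) is a nuclear protein that follows lipogenesis.

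The sequences under the strongest signal are shown first, since most of the results concern how far peaks spread around them. In each library the highest point of the strongest peak in a locus was located, and the position shared by most libraries within 150 bp was taken. In Acly it lay 0.016 kb after the gene start, at chromosome 11 position 100527984 in the first exon, in 22 of 22 libraries. In Elovl6 it lay in an intron, 4.03 kb after the start at chromosome 3 position 129536386, also in 22 libraries. In Thrsp it lay 1.23 kb before the start, outside any annotated gene, in 18 libraries. In Fasn it lay 6.36 kb before the start, in an intron of the neighbouring gene Ccdc57, in 16 libraries. The most common position at Acaca was shared by only 12 libraries, in an intron 68.5 kb after the start of the gene span, past the start site at 65.8 kb.

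Below are 250 bases before the RefSeq start site of Acly and of Fasn (GRCm38.p6, from RefSeq), and 201 bases of GRCm38 centred on the highest point of Elovl6, Thrsp and Acaca, all read on the strand of the gene. Capitals mark every match, on either strand, of CCAAT (bound by NF-Y), GGGCGG (GC box), CACGTG (E-box), TCACCCCAC (sterol regulatory element core), TTGCNNAA (C/EBP) and the direct repeats of AGGTCA that bind PPAR-RXR and LXR-RXR, where N is any base.
Acly promoter, chr11:100528001-100528250: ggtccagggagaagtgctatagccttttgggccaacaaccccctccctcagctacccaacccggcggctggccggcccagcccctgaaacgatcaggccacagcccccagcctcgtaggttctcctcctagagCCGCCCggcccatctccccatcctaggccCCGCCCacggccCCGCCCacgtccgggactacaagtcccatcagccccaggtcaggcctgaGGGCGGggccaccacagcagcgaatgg
Fasn promoter, chr11:120824548-120824797: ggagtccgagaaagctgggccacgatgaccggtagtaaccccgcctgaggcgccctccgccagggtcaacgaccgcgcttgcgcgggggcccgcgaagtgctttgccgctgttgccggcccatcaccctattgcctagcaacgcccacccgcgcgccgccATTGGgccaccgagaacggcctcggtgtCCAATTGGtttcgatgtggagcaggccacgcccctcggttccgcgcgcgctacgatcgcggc
Elovl6 highest point, chr3:129536286-129536486: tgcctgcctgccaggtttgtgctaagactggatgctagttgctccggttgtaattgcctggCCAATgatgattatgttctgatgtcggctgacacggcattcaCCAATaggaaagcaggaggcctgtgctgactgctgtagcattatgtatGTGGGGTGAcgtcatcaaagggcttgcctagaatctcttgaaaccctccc
Thrsp highest point, chr7:97418858-97419058: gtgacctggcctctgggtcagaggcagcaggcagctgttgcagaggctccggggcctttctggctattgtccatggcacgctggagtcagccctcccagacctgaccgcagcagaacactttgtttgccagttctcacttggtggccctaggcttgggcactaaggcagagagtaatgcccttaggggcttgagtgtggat
Acaca highest point, chr11:84198098-84198298: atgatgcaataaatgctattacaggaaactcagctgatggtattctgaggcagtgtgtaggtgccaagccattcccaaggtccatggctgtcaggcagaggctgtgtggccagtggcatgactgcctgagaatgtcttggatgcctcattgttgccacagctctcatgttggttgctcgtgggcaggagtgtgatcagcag
The tables of promoters held 8 of the 10 genes, with 11 promoter entries, since Mlxipl and Srebf1 have several, and Scd1 and Scd2 have no entry. CCAAT was found in 7 of these 11 promoters of 300 bases and in 37.4% of the 32851 promoters of all genes. GGGCGG was found in 4 of 11, against 35.7% of all promoters. The sterol regulatory element core was found in none of the 11 promoters, against 0.551% of all promoters, and in 1 of the 9 windows around the highest points, that of Elovl6, against 0.296% of the 43307 windows of the library C 1. The window of Elovl6 holds 2 CCAAT matches beside it. No match of the PPAR-RXR repeat was found in these promoters or windows, and 0.0396% of all promoters hold it. A match is a run of letters and not a measured binding site.

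The signal of a locus was the summed total signal of the peaks over it, on a log2 scale after each library had been set to a common distribution by rank. The 22 libraries differed most at Acaca, where the locus signal ranged from 14.81 to 22.91, and least at Srebf1, where it ranged from 19.33 to 20.16. A gene of a small locus such as Thrsp cannot be compared in level with one of a long locus such as Acaca, so levels are compared only between libraries. The median locus signal of the 22 libraries was 18.32 for Acly, 19.77 for Fasn and 17.90 for Elovl6. Peaks over a neighbouring gene count toward a locus, and 3 of the 10 loci (Elovl6, Scd1 and Scd2) hold no other protein-coding gene. The plot of locus signal shows each library.

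**Figure D1:**
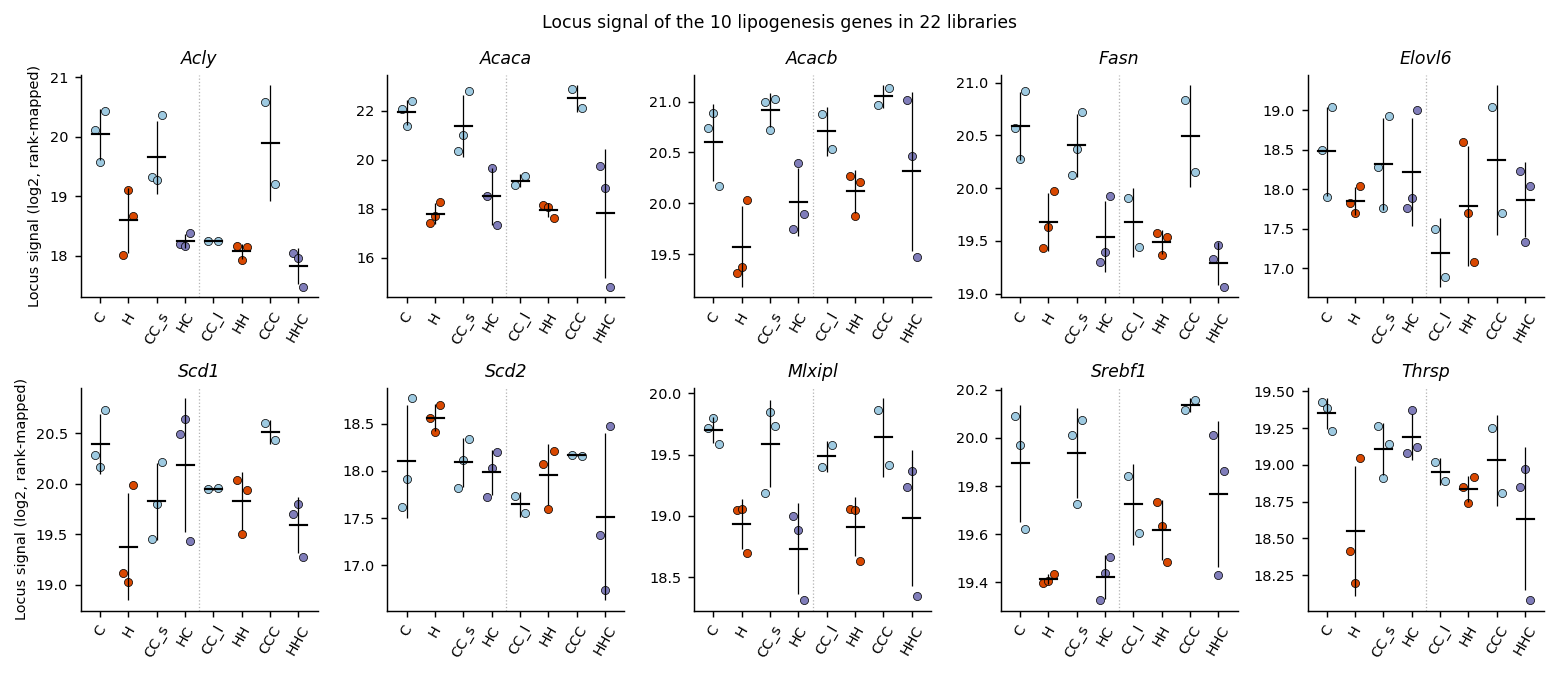
Locus signal (log2, rank-mapped, y axis) of the 10 genes in the 8 groups (x axis), with 1 point per library, the group mean as a bar and the SD as a line; the dotted line separates the short arm from the long arm. At Acaca the 3 H libraries lie between 17.42 and 18.28, and the 3 C libraries between 21.39 and 22.39.

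Obesity was compared first in the short arm, H against C, the comparison with 3 libraries on each side and the same age. The median peak maximum was 51, 47 and 64 in H and 75, 73 and 107 in C, lower in every H library. It was 5.1, 4.7 and 6.4 times the lowest peak maximum in H and 6.82, 8.11 and 8.92 times in C. The part of this difference between libraries in the results was not tested. The loci of 9 of the 10 genes had lower values in H, and 5 of these passed the test: Acaca, Acly, Acacb, Fasn and Mlxipl fell (limma, adjusted p under 0.05 over 17024 tested loci). Of all tested loci, 4.36% fell by the same rule. The median difference was -0.85 over the 10 genes and -0.01 over all tested loci. Without C 1 the count of 5 became 2, and without C 2, H 1 or H 2 it became 1, while without C 3 or H 3 it was 4 and 6 (0.353% to 3.37% of all tested loci fell in these 6 fits), so that the count of called genes rests on few libraries. Fewer nuclei with an open locus and less opening per nucleus cannot be told apart in these libraries.

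Acaca encodes the carboxylase that makes malonyl-CoA for fatty acid synthesis, and it moved furthest. Its locus signal was 22.08, 21.39 and 22.39 in C 1, C 2 and C 3, and 17.42, 17.73 and 18.28 in H 1, H 2 and H 3. The groups did not overlap, and the difference was -4.14 ± 0.30 (SE) on the rank-mapped log2 scale, with an adjusted p of 0.00320. It was called in 18 of 19 alternatives, all but the one on summed maximum signal described below, while Mlxipl was called in 13 of the 19, Fasn in 10, Acacb in 9 and Acly in 7. The called peaks covered 241, 257 and 264 kb of the 312 kb locus in C and 20.8, 20.8 and 35.2 kb in H. The longest unbroken stretch was 227, 103 and 253 kb in C 1, C 2 and C 3, while in H the longest stretch was 5.455, 6.999 and 6.555 kb. A length of 188 kb was covered in every C library and in no H library, and no base was covered in every H library and in no C library. The map of the Acaca locus shows these peaks.

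**Figure D2:**
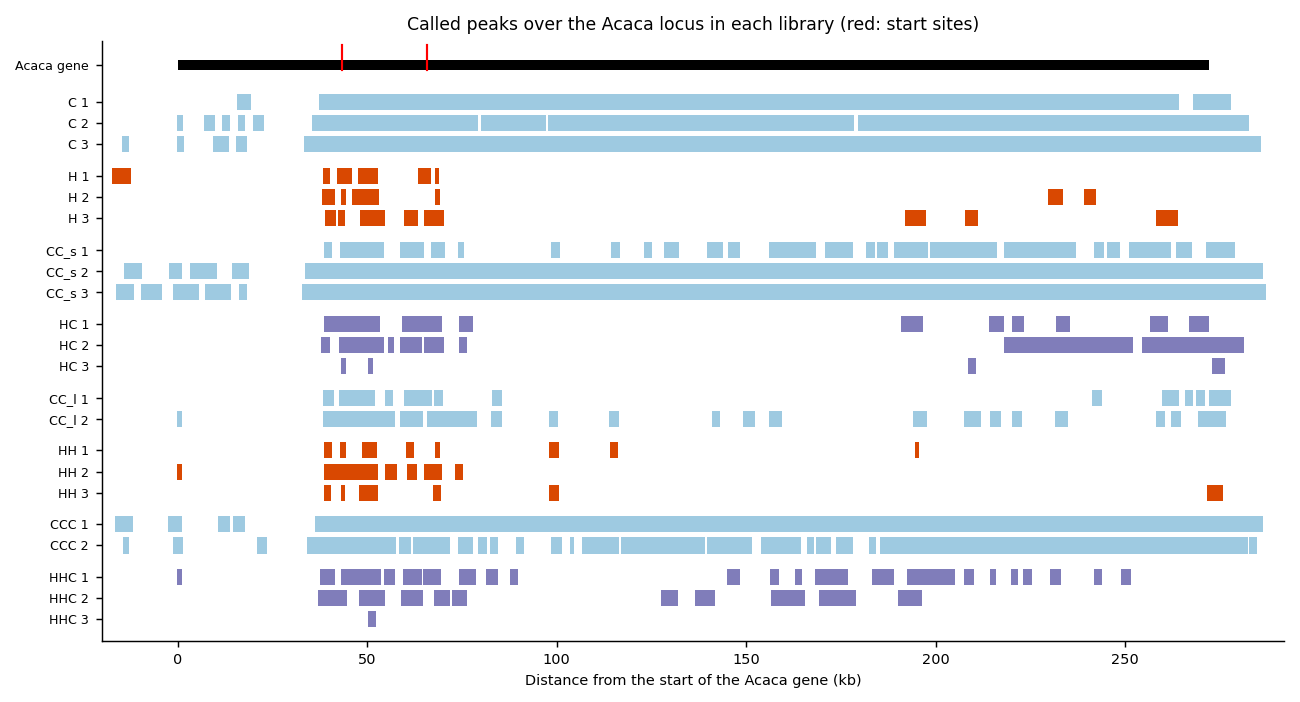
Peaks called in each of the 22 libraries over the Acaca locus; the x axis is the distance from the start of the gene in kb, the black bar is the gene, the red lines are its annotated start sites at 43.5 and 65.8 kb, and the colours give controls (blue), obese (orange) and WL (purple) mice. The longest unbroken peak is at least 103 kb in C, CC_s 2, CC_s 3 and CCC 1 and 96.9 kb in CCC 2. It is no more than 14.1 kb in H, HH, HHC, HC 3 and CC_l 1.

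Acly, the source of cytosolic acetyl-CoA, had a locus signal of 20.11, 19.58 and 20.44 in C and of 18.02, 19.11 and 18.68 in H, with no overlap. The difference was -1.44 ± 0.32 (adjusted p = 0.0353). The peaks covered 70.0, 66.4 and 75.6 kb in C, mostly in 1 unbroken peak of 60.3 to 67.0 kb, and 18.2, 48.5 and 35.4 kb in H, as 5 to 7 peaks.

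**Figure D3:**
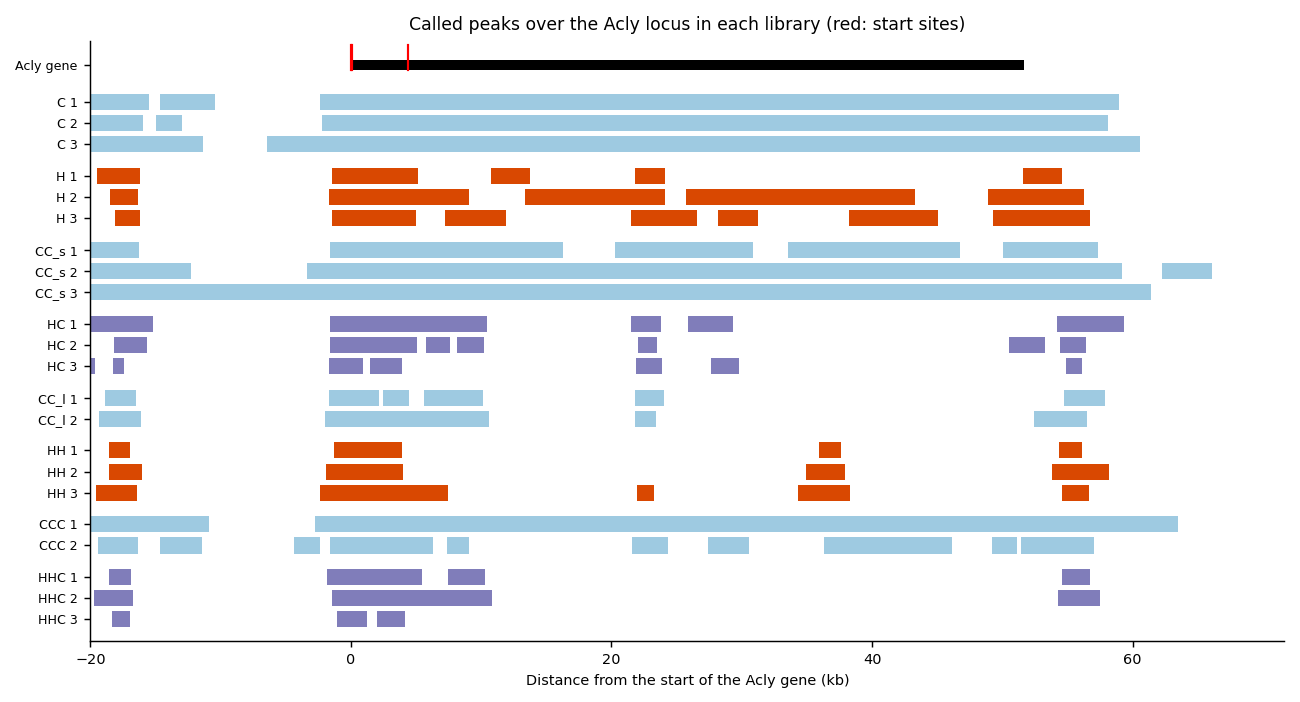
Peaks called in each of the 22 libraries over the Acly locus; the x axis is the distance from the start of the gene in kb, the black bar is the gene, the red lines are its start sites, and the colours are as in the map of Acaca. The peak at the start site is present in all 22 libraries, and its extent over the gene body differs.

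Fasn, which builds palmitate, had a locus signal of 20.57, 20.27 and 20.92 in C and of 19.43, 19.63 and 19.98 in H, and the difference was -0.91 ± 0.20 (adjusted p = 0.0357). The covered length was 50.5, 56.7 and 55.6 kb in C and 44.8, 45.4 and 44.8 kb in H, without overlap, but as a share of all that was covered in a library it overlapped. Mlxipl had a locus signal of 19.72, 19.80 and 19.59 in C and of 19.05, 19.06 and 18.70 in H, and the difference was -0.77 ± 0.14 (adjusted p = 0.0213). Acacb, the carboxylase at the outer mitochondrial membrane whose product restrains fatty acid oxidation, had a locus signal of 20.74, 20.89 and 20.17 in C and of 19.32, 19.38 and 20.03 in H. The groups did not overlap there, with a difference of -1.03 ± 0.25 (adjusted p = 0.0461).

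Scd1, Thrsp and Srebf1 had no overlap between H and C and did not pass the adjusted test. Scd1 differed by -1.02 (adjusted p = 0.0596), Thrsp by -0.80 (adjusted p = 0.0631) and Srebf1 by -0.48 (adjusted p = 0.0671). Elovl6 (-0.62, adjusted p = 0.182) overlapped. Scd2, the second desaturase of adipose tissue, was the only one of the 10 with a higher mean in H: 17.62, 17.91 and 18.77 in C and 18.56, 18.42 and 18.70 in H (0.46, adjusted p = 0.320). In all, the locus signal of 8 of the 10 genes was lower in every H library than in every C library, as it was in 17.8% of all tested loci. The covered length was lower without overlap in 9 of 10 genes and in 16.1% of all tested loci. It is not scaled between libraries, and as a share of each library's covered length Fasn and Thrsp overlapped.

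Both durations were then fitted together, with arm as a term, as obese (H and HH, n = 6) against control (C and CC_l, n = 5). The same 5 genes fell, and 8.05% of the 17002 tested loci fell by the same rule. Acaca differed by -2.84 ± 0.48 (adjusted p = 0.00306), Mlxipl by -0.68 ± 0.11 (adjusted p = 0.00299) and Acacb by -0.83 ± 0.18 (adjusted p = 0.00925). Acly differed by -0.88 ± 0.27 (adjusted p = 0.0440) and Fasn by -0.59 ± 0.17 (adjusted p = 0.0389), and both came close to the threshold. The number of called genes was 3 without C 1, C 2, C 3, H 1, H 2 or HH 2 and 7 without HH 1, where 4.07% to 11.3% of all tested loci fell over the 11 fits that each lack 1 library. The locus signal of Acly, Acaca, Acacb and Mlxipl was lower in every obese library than in every control library of its arm, as in 7.33% of tested loci, and the covered length of Acaca, Acacb, Fasn and Mlxipl, as in 5.16%, although as a share of each library's covered length Fasn overlapped here too. In an exact permutation test of the locus signal within duration (two-sided, 200 relabellings, smallest possible p 0.005), Acaca, Acacb and Mlxipl were lower at that smallest p of 0.005, as were 3.91% of tested loci.

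Within the long arm alone the differences were smaller. HH against CC_l gave no called gene of the 10 (1 of 17258 loci was called), and 3 genes were lower at an unadjusted p under 0.05, as were 5.45% of all tested loci. These were Acaca (-1.21, limma unadjusted p = 0.00225), Acacb (-0.59, unadjusted p = 0.0137) and Mlxipl (-0.57, unadjusted p = 0.0228). The locus signal of Acaca was 18.97 and 19.35 in CC_l, below all 8 libraries of the other control groups, which lay between 20.35 and 22.91. The covered length of Acaca in CC_l was 44.7 and 85.4 kb, in HH 17.2, 28.3 and 17.3 kb. CCC, the older long-arm control, exceeded CC_l at Acaca by 3.36 (unadjusted p = 5.13e-05, adjusted p = 0.328) and at Acly by 1.65 (unadjusted p = 0.0122, adjusted p = 0.511). Of the 10 genes 6 were higher in CCC at an unadjusted p under 0.05, against 4.77% of all tested loci, and none passed the adjusted threshold. The difference between the arms in the effect of obesity was 2.93 at Acaca (unadjusted p = 4.78e-05, adjusted p = 0.284).

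**Figure D4:**
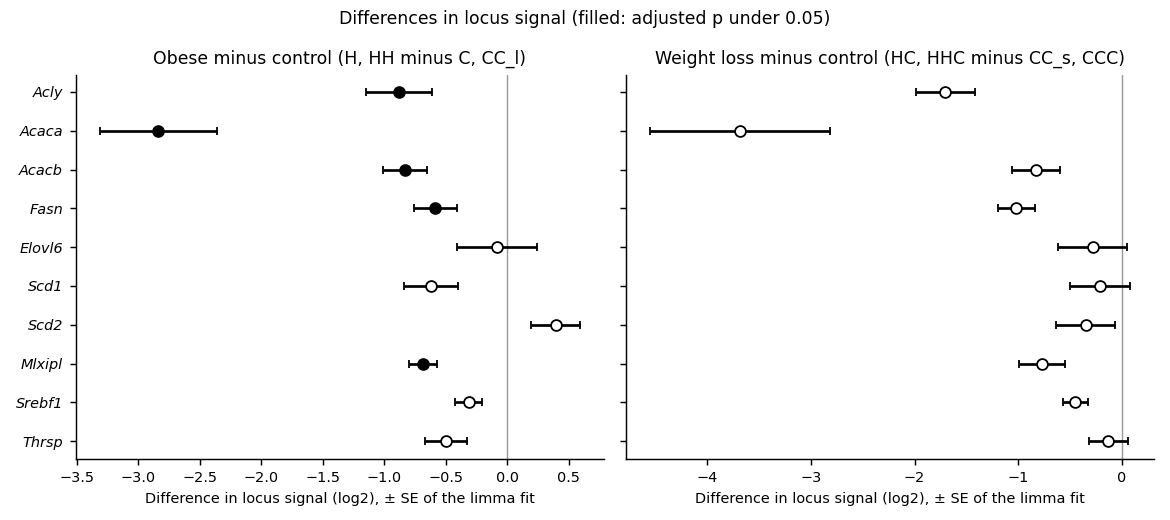
Difference in locus signal (log2, x axis) of each gene (y axis) for obese minus control (left) and WL minus control (right) over both durations, with points at the limma estimate and bars of 1 SE; filled points have an adjusted p under 0.05. On the left 5 points are filled, Acaca at -2.84, and on the right none is.

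WL mice were compared with age-matched controls next, HC and HHC (n = 6) against CC_s and CCC (n = 5), which shows what the loci look like after the return to chow. No gene of the 10 passed the adjusted test (limma), and only 16 of 16985 loci did, of which 11 fell (0.0648%). With all 22 libraries in 1 fit 5 of the 10 genes were called lower, against 1.7% of tested loci in that fit, and without CC_s 1 there were 2, against 0.233%. At an unadjusted p under 0.05, 6 of the 10 genes were lower and none higher, against 9.13% of all tested loci lower. The median difference was -0.61 over the 10 genes and -0.04 over all tested loci. Acly was nearest to the threshold. Its locus signal was 18.21, 18.16 and 18.39 in HC and 18.05, 17.96 and 17.48 in HHC, and 19.33, 19.28 and 20.36 in CC_s and 20.59 and 19.21 in CCC, with no overlap in either arm (-1.70 ± 0.29, adjusted p = 0.0560). Fasn followed (-1.02 ± 0.18, adjusted p = 0.0614) and did not overlap either: 19.30, 19.40 and 19.93 in HC, 19.33, 19.46 and 19.06 in HHC, 20.13, 20.37 and 20.72 in CC_s, and 20.84 and 20.15 in CCC.

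Acaca had the largest estimate and the largest spread. Its locus signal was 18.51, 19.67 and 17.35 in HC, 19.77, 18.87 and 14.81 in HHC, 20.35, 21.00 and 22.81 in CC_s and 22.91 and 22.12 in CCC (-3.68 ± 0.87, adjusted p = 0.114). The peaks covered 55.3, 89.7 and 8.21 kb in HC and 143, 272 and 280 kb in CC_s. Mlxipl (-0.77), Acacb (-0.83) and Srebf1 (-0.45) differed at an unadjusted p under 0.05, with adjusted p from 0.152 to 0.169. Elovl6, Scd1, Scd2 and Thrsp differed by -0.28, -0.21, -0.35 and -0.13 with adjusted p of 0.518 and above. Locus signal without overlap in both arms was lower for 5 genes (Acly, Acaca, Fasn, Mlxipl and Srebf1) and in 3.6% of tested loci; covered length was so for Acly and Acaca and in 1.58% of tested loci.

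In the separate arms, HC against CC_s had 6 of 10 genes lower at an unadjusted p under 0.05 and HHC against CCC had 4, against 5.23% and 2.47% of all tested loci, and none passed the adjusted threshold. The genes lower in both arms were Acly, Acaca and Fasn. Scd1 was lower in HHC (-0.93, unadjusted p = 0.00508) and not in HC (0.36), and the difference between the arms was -1.29 (unadjusted p = 0.0221, adjusted p = 1). HC 3 and HHC 3 had the least enrichment of the 22 libraries, with a median peak maximum 2.43 and 2.25 times the lowest peak maximum, against 3.67 to 8.92 in the others. With both left out, 1 of the 10 genes was called lower, against 0.188% of tested loci.

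The effect of WL minus that of obesity was fitted as its own contrast, to ask whether the genes returned. No gene of the 10 differed at an adjusted p under 0.05 (limma; over both arms none of 18628 loci did, with 1896 at an unadjusted p under 0.05). Over both arms the contrast was -0.93 ± 0.37 for Acly, -1.11 ± 0.98 for Acaca, -0.49 ± 0.24 for Fasn and -0.01 ± 0.32 for Acacb. In the short arm the contrast was 1.38 for Scd1 (unadjusted p = 0.0177) and 0.88 for Thrsp (unadjusted p = 0.0111), with adjusted p of 0.479 and 0.455. Scd1 was 19.12, 19.03 and 19.99 in H and 20.50, 20.64 and 19.43 in HC, and 20.28, 20.17 and 20.73 in C and 19.46, 19.80 and 20.22 in CC_s. For Thrsp the values were 18.42, 18.19 and 19.05 in H and 19.08, 19.37 and 19.12 in HC, beside 19.43, 19.39 and 19.23 in C and 19.26, 18.91 and 19.14 in CC_s.

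Promoter signal was read from peaks within 2000 bp of an annotated start site. Each such peak counted with its whole signal, also where it reached far past this window, so promoter and locus values share long peaks. The threshold was an unadjusted p under 0.01 (limma) with a log2 difference under -1. In H against C, 4 of the 10 genes met it, against 1.92% of all tested promoters. Srebf1 had the smallest p: 20.04, 19.56 and 19.11 in C and 17.11, 17.59 and 17.36 in H (-2.22 ± 0.28, adjusted p = 0.0230), followed by Acly (-2.09 ± 0.32, adjusted p = 0.0329). Acaca (-4.82, adjusted p = 0.0632) and Acacb (-1.99, adjusted p = 0.111) met the unadjusted threshold alone. Without C 1 the count of 4 became 2, against 2.49% of tested promoters in that fit. The promoter signal of Scd2 was 16.34, 16.22 and 18.20 in C and 18.32, 18.12 and 18.55 in H (1.41, adjusted p = 0.210). Over both durations 3 genes met the threshold in obese mice (1.86% of tested promoters) and 4 in WL mice (1.4%). These shares are by the unadjusted threshold, and no share of all promoters is given here for the adjusted p. Among these genes Acaca (-3.63, adjusted p = 0.0259) and Acacb (-1.42, adjusted p = 0.0466) passed the adjusted test (limma) in obese mice. In WL mice Fasn came nearest (-1.44 ± 0.24, adjusted p = 0.0686). The promoter of Srebf1 differed by 0.44 between HH and CC_l, where its values were 17.86 and 19.41 in CC_l and 18.32, 19.42 and 19.50 in HH.

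The peaks of the 22 libraries were merged into 104657 union regions, 27 of which overlapped these loci and may reach past them. Their signal comes from the same peaks as the locus and promoter values. Regions in H against C that fell at an adjusted p under 0.05 with a log2 difference under -1 numbered 4, over the genes Acaca, Fasn, Acly and Acacb, out of 15 tested, against 3.36% of all tested regions. Each of the 4 spans more than 130 kb and covers a promoter, and the largest, at Acaca (chr11:84162558-84416918), is 254 kb long. In obese against control mice 1 region of 14 tested fell by this rule, that of Acaca (-2.81 ± 0.46, adjusted p = 0.00148), against 2.58% of tested regions. In WL mice 3 regions of 18 tested fell by it, at Acly (-1.37 ± 0.23, adjusted p = 0.0183), Fasn (-1.13 ± 0.19, adjusted p = 0.0192) and Acaca (-3.63 ± 0.77, adjusted p = 0.0389), against 0.768% of tested regions. The calls on loci used the adjusted p alone, and by that rule, with no limit on the difference, 9 regions were lower in H, 8 in obese mice and 4 in WL mice, against 7.71%, 11.9% and 1.34% of all tested regions, and none was higher. The 7 further regions in obese mice, at Acly, Acacb, Fasn, Scd1, Mlxipl, Srebf1 and Thrsp, differed by -0.90 to -0.40 (adjusted p from 0.00140 to 0.0377). Of the 9 in H, 1 region of Mlxipl had no peak in any H library and entered the test only through C. With the limit on the difference, the WL count became 5 without CC_s 1 (0.98% of tested regions in that fit), 1 without CC_s 2 (0.169%) or CCC 1 (0.179%) and 0 without CC_s 3 (0.14%). Of the 5, the same region of Mlxipl had no peak in any WL library. The count for H against C became 1 without C 2 (0.0556%) or H 1 (1.03%) and 2 without C 3 (2.66%). In the separate pairs HC against CC_s, HH against CC_l and HHC against CCC no region passed. The smallest p belonged to the regions of Acacb (-1.13), Srebf1 (-0.70) and Acly (-1.21) in HC, with adjusted p from 0.139 to 0.147. In HH they were those of Acaca (-1.21), Acacb (-0.66) and a region within Elovl6 (1.37), with adjusted p from 0.162 to 0.208. The mean of this Elovl6 region in CC_l was 14.07, close to the value of 14.01 given to a library without a peak. In HHC the regions of Fasn (-1.32) and Acly (-1.58) had an adjusted p of 0.753. A region of Mlxipl had no peak in any HHC library, which were all set to 14.01, and a mean of 15.10 in CCC. It entered the test only through CCC, so its difference is no test result.

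The measure used mattered. When the maxima of the peaks were summed in place of their total signal, Acaca in H against C differed by 0.21 (adjusted p = 0.604), Acly by 0.18, Fasn by 0.10 and Acacb by 1.06, and none of the 10 genes was called lower. The Acaca locus held 3, 9 and 5 peaks in C and 6, 6 and 8 in H, and the part of the number of peaks in this difference was not tested. In obese mice over both durations only Mlxipl was called lower by the summed maximum (-0.60, adjusted p = 0.00588). Height was also read as the highest point in the locus divided by the library's own median peak maximum, a measure chosen after these results were seen. At Acaca it was 3.27, 3.34 and 3.02 in C and 1.098, 1.489 and 1.5 in H. It was lower without overlap in H for 9 of the 10 genes, but also in 45.6% of all tested loci, and this share was 23.7% in obese mice over both durations (Acly, Fasn, Elovl6, Scd1 and Thrsp) and 2.24% in WL mice, where Fasn and Srebf1 were the genes. Scd2 overlapped in H, and Acaca overlapped in the long arm, with 1.87, 1.66 and 1.39 in HH and 1.83 and 2.49 in CC_l. The plot by measure sets the values side by side.

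**Figure D5:**
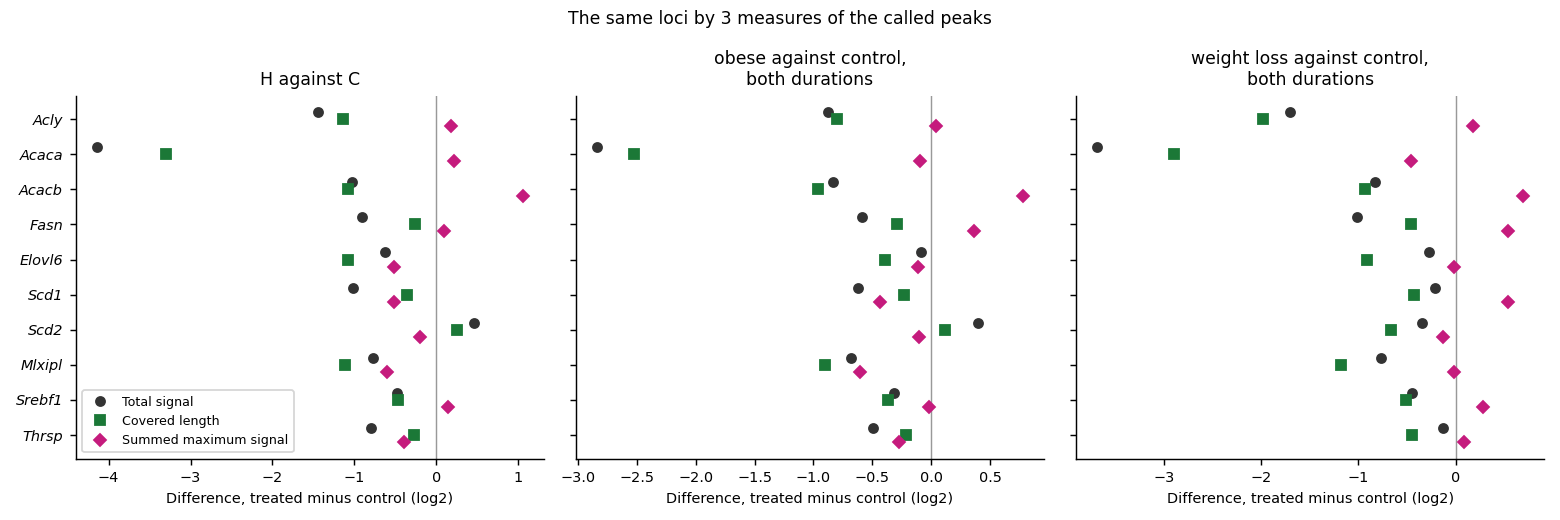
Difference (log2, treated minus control, x axis) of each gene (y axis) by the total signal, the covered length and the summed maximum signal of its peaks, in 3 comparisons. The total signal and the covered length of Acaca lie far below 0, and its summed maximum lies at 0.21, -0.09 and -0.46.

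Of the 10 adipocyte markers none was at the floor in all libraries of any group, and their mean locus signal ranged from 19.58 to 20.77 over the libraries. The mean of the macrophage list ranged from 15.47 to 16.82, and levels of lists with loci of different length are not compared. In H against C, 1 adipocyte marker fell and 1 rose of 10, while 4.36% of all tested loci fell. The 4 mesothelial markers had a median difference of -0.80 in H and of -0.69 in obese mice over both durations, where 1 of them fell, and of 0.0013 in WL mice. In obese mice 1 endothelial marker fell and 1 rose of 4 tested (median 0.39, and 0.72 in HH), 1 lymphocyte marker fell of 4 (median -0.21), and 1 macrophage marker fell of 5 (median -0.36). Of all tested loci 8.05% fell and 9.76% rose in obese mice. Cdh5, Kdr and Tek were at the floor in every C and CC_l library. At least 1 of the 4 endothelial markers tested therefore entered only through the obese libraries, and the endothelial medians are no test result. The 5 progenitor markers had a median difference of 0.20 in obese mice and of 0.56 in WL mice (0.46 in HC and 0.69 in HHC), with none called. Up to 4 of 10 macrophage markers were at the floor in all libraries of a group (Adgre1, Itgam, Trem2 and Tyrobp in CC_s and CC_l), and up to 4 of 6 endothelial markers. The part of these cell types in the results was not tested.

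A list of 35 other genes of the pathway, its cofactors and its regulators was read in the same way. In obese mice 6 passed the test, 4 lower and 2 higher, against 8.05% of all tested loci lower and 9.76% higher, and the median difference was 0.09. Fads2, a fatty acid desaturase, rose by 1.03 ± 0.12 (adjusted p = 0.000545) and Insig1, which holds SREBP in the endoplasmic reticulum, by 0.76 ± 0.16 (adjusted p = 0.00947). Tkt, of the pentose phosphate pathway, fell by 0.80 ± 0.10 (adjusted p = 0.000720), Mlycd, which degrades malonyl-CoA, by 0.85 ± 0.17 (adjusted p = 0.00731), Mcat by 0.43 and Tecr, of fatty acid elongation, by 0.34. Scd4 and Pgd were higher at an unadjusted p under 0.05 (0.90 and 0.23). In WL mice none of the 35 passed, and 8 were lower and 3 higher at an unadjusted p under 0.05, against 9.13% and 7.02% of all tested loci. The lowest p among those lower were of Me1, which makes NADPH (-1.31, adjusted p = 0.0717), Aacs (-0.70), Acss2, which makes acetyl-CoA from acetate (-1.05), and Pklr (-1.47), and Insig1 was again higher (0.65, adjusted p = 0.192), beside Nr1h2 and Usf1 (0.50 and 0.48). The genes outside these loci most like the mean of the 10 over the 22 libraries, by Pearson's r among 16765 genes, were Dop1a (0.876), Rwdd2a (0.870), Galnt2 (0.866), Ppp1r3b (0.866) and Pcx (0.864), a description over libraries that differ in enrichment. Among the 10 themselves Acly and Fasn were most alike (r = 0.953), and Acacb and Scd2 least (r = -0.375), over the same libraries.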

How the data were processed

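Biotin-tagged adipocyte nuclei of 22 mice were profiled by ATAC-seq. Per the labels, the authors trimmed the reads with Trim Galore 0.6.6, aligned them with Bowtie2 2.4.4 to GRCm38, and called peaks per library with SEACR 1.3, with SAMtools 1.13 and bedtools 2.30 also listed. The deposited lists give each peak's total and maximum signal, with no normalization stated and no counts. The study states a minimum number of reads per library, but the lists do not give the depth of each. Mitochondrial peaks were set aside and no column was left unmatched. The total signal of whole peaks over a locus was summed and rank-mapped: the 16741 strongest loci of a library took the mean log2 value at their rank and all others the floor of 14.06; promoters and regions were treated likewise. A locus was tested where at least as many compared libraries as its smaller side holds were above the floor, which all 10 genes passed. Groups were compared with limma 3.58.1 (R 4.3.3; eBayes with trend) over all tested loci, with Benjamini-Hochberg adjustment, and by two-sided exact permutation. Nothing states that animals of a group were raised apart, so p-values measure the spread between these animals.

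The genes and lists were chosen with earlier results of these data known. All 10 genes are named, with the regions called or else those of smallest p, at most 4 other pathway genes per direction, and the 5 most alike genes. The test was run on simulated loci with known changes, drawn with the same spread in every library. Differences in enrichment between libraries were not part of that check. The alternatives are given in the closing section.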

Additional observations from a re-analysis of the deposited data

Results flagged for a closer look

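Differences between groups in the effect of diet were looked at for the 10 genes, and those with an unadjusted p under 0.01 are listed; none passed the adjusted test over all tested loci or promoters. The effect of obesity at the Acaca locus was 2.93 ± 0.43 less negative in the long arm than in the short arm (limma, unadjusted p = 4.78e-05, adjusted p = 0.284). The same contrast was 1.80 ± 0.44 at the promoter of Acly (adjusted p = 0.643) and 2.66 ± 0.67 at the promoter of Srebf1 (adjusted p = 0.652). The effect of WL minus that of obesity in the long arm was -1.90 ± 0.51 at the Acly locus (adjusted p = 0.981), and over both arms it was -1.67 ± 0.56 at the promoter of Scd2 (adjusted p = 0.521). These contrasts at the Acaca and Acly loci use CC_l, and the locus signal of both genes was lower in its 2 libraries than in every other control library.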

How the results depend on the processing

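Values below are log2 differences of single loci, medians over the 10 genes, or counts of the 10 genes (or of regions) called lower, each treated group against its own control, with the share of all tested loci, promoters or regions called lower in brackets beside a count; the cause of a change was not tested. In the main fits of the separate pairs the median was -0.68 in HC, -0.15 in HH and -0.70 in HHC. The main promoter counts there were 1 in HC (1.06%), 0 in HH (0.906%) and 2 in HHC (0.653%). With the summed maximum signal, the median was -0.050 in H, -0.10 in obese mice, 0.13 in WL mice over both durations, 0.21 in HC and 0.021 in HHC. The counts of loci were 0 in H (1.97%) and 1 in obese mice (2.97%). Those of promoters were 1 in H (1.12%) and 0 in obese (0.684%), WL (0.579%), HC (0.603%) and HHC mice (0.444%), and those of regions (by maximum signal) were 0 in H (3.65%), obese (2.89%) and WL mice (0.821%). The sign turned in H at Acaca (0.21), Acacb (1.06), Acly (0.18), Fasn (0.10), Srebf1 (0.14) and Scd2 (-0.20). In obese mice it turned at Acacb (0.78), Acly (0.038), Fasn (0.37) and Scd2 (-0.10). In WL mice it turned at Acacb (0.69), Acly (0.17), Fasn (0.54), Scd1 (0.54), Srebf1 (0.28) and Thrsp (0.087). In the separate pairs it turned in HC at Acacb (1.21), Acly (0.52), Fasn (0.73) and Srebf1 (0.14), in HH at Acacb (0.43), and in HHC at Fasn (0.29) and Scd1 (0.47).

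With covered length the count was 3 in H (1.4%) and 3 in obese mice (3.2%), and the median was -0.38 in obese mice and -0.28 in HH. With signal in proportion to the overlap the counts were 8 in H (6.98%), 8 in obese (10.6%) and 2 in WL mice (0.371%). With the gene span alone the median was -1.16 in H and -0.78 in obese mice, the count in H was 3 (1.65%), and Elovl6 in obese mice was at 0.0077; with 50 kb at each side the median in obese mice was -0.48. As a share of library signal the median was -1.09 in H, -0.82 in obese mice, -1.01 in WL mice, -1.18 in HC and -0.29 in HH, the count in obese mice was 8 (11.4%), and the promoter counts were 0 in HC (0.694%) and in HHC (0.19%). With median scaling the median was -1.08 in H, -0.79 in obese mice and -1.03 in HC, and the counts were 8 in H (5.53%), 8 in obese (12%) and 1 in WL mice (0.306%). The count was 2 in WL mice with the 20000 strongest peaks (0.275%), 2 in H (1.47%) and 3 in obese mice (4.97%) with no filter, 3 in H (3.85%) and in obese mice (7.87%) without trend, and 3 in obese (4.2%) and 5 in WL mice (1.7%) with all 22 libraries in 1 fit. Promoters within 1000 bp gave 1 in HHC (0.602%), and regions above the floor in any library gave 1 in H (0.14%) and 0 in WL mice (0.0716%).

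Leaving out each library in turn gave medians from -1.05 to -0.80 in H and from -0.70 to -0.49 in obese mice, a difference of -0.32 to 0.12 at Elovl6 in obese mice, and counts of loci from 1 to 6 in H (0.353% to 3.37%), 3 to 7 in obese mice (4.07% to 11.3%) and 0 to 2 in WL mice (0% to 0.233%). Promoter counts ranged from 2 to 6 in H (1.61% to 2.49%), 0 to 1 in HC (0.53% to 2.9%) and in HH (0.893% to 1.52%), and 0 to 3 in HHC (0.646% to 1.02%), and region counts from 1 to 5 in H (0.0556% to 3.18%), 0 to 5 in WL mice (0.14% to 1.15%) and 0 to 1 in HH (0% to 0.788%). The following alternatives were chosen after the data were seen. Low enrichment was taken as a median peak maximum under 4 times the lowest. In the WL comparison this left out HC 3, HHC 3 and CCC 2, so that CCC held 1 library, and gave 0.17 at Scd1. Leaving out HC 3 and HHC 3 gave 1 locus (0.188%) and 2 promoters (0.841%) in WL mice, 0.056 at Scd1 and 0.010 at Thrsp.

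Over 31 pairs of same-numbered libraries in an arm the correlation of deviations had a median of -0.09, and 11 were over 0.1. In none of the 4 treated-against-control pairs of groups was every correlation over 0.1, so the numbers were not taken to pair the libraries compared; between C and CC_s all 3 were (0.281 to 0.516), a hint from the data alone. With the replicate block the count was 3 in H (0.629%), promoters gave 0 in HC (0.946%), regions gave 1 in HH (0.167%) and 1 in HHC (0.00305%), Elovl6 in obese mice was at 0.0054 and Thrsp in WL mice at 0.0032. The lists hold no counts, so that what the depth of each library limits is unknown, and 2 libraries in CC_l and in CCC limit the long arm.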
